A study of Trichoderma reesei with 9 samples.

Results

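The comparison is between *Trichoderma reesei* RUT-C30 grown on high melanin necromass and the same strain grown on low melanin necromass, and it rests on 6 of the 9 libraries of the study, 3 per necromass type. The 6 libraries were chosen by their labels and not by any measured value. Necromass is dead fungal mycelium, here freeze-dried mycelium of *Hyaloscypha bicolor*. All cultures were of RUT-C30, an industrial strain with a truncated *cre1* gene and hence impaired glucose repression, and all were grown for 7 days in Highley's medium with the substrate as the added carbon source. Both necromass types were supplied at 0.45% (w/v), and the remaining 3 libraries came from cultures on 1% (w/v) glucose, which enter here only as levels set beside those on necromass. The low and high melanin mycelium had been raised in flasks that differed in medium volume and shaking speed and was harvested in bulk. The study's methods describe homogenised mycelium of each type and no separate necromass for each replicate culture. Whether several harvests were pooled is not given in the sources used here. Melanin content cannot be told apart from any other difference between the 2 preparations. The comparison asks which genes of the decomposer changed with the type of necromass, across all genes and including changes under 4-fold.

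Walls of ascomycete fungi hold chitin bound to β-glucans, with mannoproteins outside them and, in dark species, melanin, a dense polymer of phenolic or indolic units that slows decay. *Trichoderma* species attack such walls with secreted glycoside hydrolases, among them the chitinases of family GH18 and glucanases of several families, with peptidases for wall protein and with transporters that take up the released sugars, amino acids and peptides. *T. reesei* is best known for its cellulases, which are secreted in large amounts once induced. Laccases and related multicopper oxidases of family AA1 oxidise phenols, and enzymes of this kind have been linked to melanin in other fungi.

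Library totals were 24635281, 22958732 and 21447367 counts on high melanin necromass, against 18074631, 22327638 and 20126789 counts on low melanin necromass. A gene was tested where it had at least 10 counts in at least 3 of the 6 libraries, which kept 9190 of 9849 genes. Levels are given as counts per 1000000 counts (CPM) after TMM scaling, always in the order of replicates 1, 2 and 3. Gene lengths were not used, so genes are set beside each other only by the counts they took. Scaled CPM remain relative to the other mRNA sequenced, so a gene that falls and a rise in most other mRNA cannot be told apart. The same holds for fewer hyphae in a given state and less mRNA per hypha. Shares of counts, given in percent, are taken of all counts of a library without TMM scaling. The biological coefficient of variation of the 6 libraries was 0.105, and it was 0.107 among high and 0.104 among low melanin libraries, whereas the glucose libraries alone gave 0.304 and all 9 together gave 0.192. Spearman correlations across genes ranged from 0.990 to 0.995 within the high melanin libraries and from 0.991 to 0.996 within the low melanin libraries, and from 0.962 to 0.985 between the necromass types.

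Family names come from annotation tags in a shortened copy of a table of differential genes from the study. The copy holds 2086 genes, 1781 from the table's list for low melanin necromass against glucose and 305 more from its list for high melanin necromass against glucose. It lacks 756 entries of the second list and 90 of its list for high against low melanin necromass. The gene families described here are therefore covered only in part, and a gene without an annotation entry is one that this copy does not hold. How the missing entries would change the counts of a family was not tested. The table was made from these same libraries, so a list is not independent evidence of its direction.

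The first principal component of the 6 libraries, computed from log2 CPM of the 500 most variable genes, held 84.2% of the variance and set the necromass types apart. High melanin libraries lay at 18.99, 17.2 and 18.7, and low melanin libraries at −18.9, −12.2 and −23.8. The second component held 4.74%. The distance between the group means was 36.6 units, larger than the spread within high melanin (SD 0.931) or low melanin (SD 5.81) libraries. Low melanin replicate 2 was the one nearest to the high melanin libraries. It was also the low melanin library closest to the high melanin mean at 2006 of the called genes (69.0%), against 597 for replicate 1 and 306 for replicate 3.

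The change between the necromass types was broad and mostly moderate. Of the 9190 genes tested, 2909 (31.7%) were called, that is, had an adjusted p under 0.05 (edgeR quasi-likelihood F test, Benjamini-Hochberg method over all genes tested). These were 1538 genes higher on high melanin necromass (16.7% of those tested) and 1371 genes lower (14.9%). Of the 2010 tested genes with an annotation entry, 560 were higher and 441 lower. That is 49.8% called, against 26.6% of tested genes without an entry. Lists drawn from the annotation copy thus start from a higher share of calls than all genes. Most calls were small. The log2 fold change of 2435 called genes (83.7%) was below 1 in size, so these genes differed by less than 2-fold, and the median size over the called genes was 0.51. A change of at least 2-fold was reached by 309 genes that rose (3.36%) and 165 that fell (1.80%), and one of at least 4-fold by 62 that rose (0.675%) and 21 that fell (0.229%). Below a log2 fold change of 0.5 in size, 713 genes rose and 695 fell, and from 0.5 to 1, 516 rose and 511 fell. The excess of genes higher on high melanin necromass past 2-fold was not there under scaling by library size alone, which gave 255 genes higher and 258 lower by at least 2-fold. By at least 4-fold that scaling gave 55 genes higher and 30 lower. DESeq2 gave 309 higher and 160 lower by at least 2-fold. The 3 libraries of a group did not overlap with the other 3 for 4520 genes (49.2%), among them 2880 of the 2909 called genes.

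These counts depend on what sets the spread. With all 9 libraries in the fit, where the spread of the glucose cultures counts too, 868 genes were called, 495 higher and 373 lower, and each of them was also called in the same direction by the 6 libraries. A test against a 2-fold boundary (glmTreat) called 93 genes, 61 higher and 32 lower. Leaving out low melanin replicate 1 gave 1723 calls and leaving out low melanin replicate 3 gave 1893, while 3090 were called without low melanin replicate 2. In every fit that left out 1 library, 818 of the genes that rose and 714 of those that fell were called again in the same direction. Scaling by library size alone, with no TMM factors, moved the median log2 fold change of all genes to −0.13, against −0.01 with TMM, and turned the split into 984 higher and 2176 lower.

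**Figure D1:**
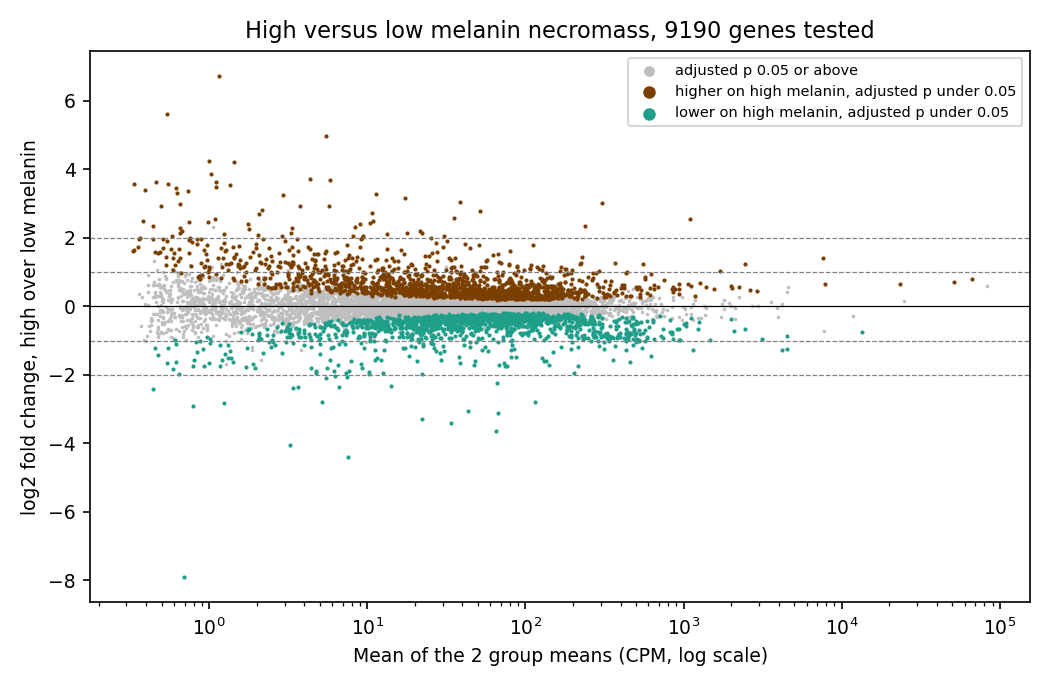
Each point is a gene, with the mean of the 2 group means on the x axis (CPM, log scale) and the log2 fold change of high over low melanin necromass on the y axis. Brown points are the 1538 genes higher and green points the 1371 genes lower on high melanin necromass at an adjusted p under 0.05, and dashed lines mark 2-fold and 4-fold, past which 62 genes rose and 21 fell by at least 4-fold.

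The genes with the largest increases were near silent on low melanin necromass. M419DRAFT_68679, which has no annotation entry, had 56, 52 and 45 counts on high melanin necromass and 0, 1 and 0 counts on low melanin necromass. Summed over each group that is a ratio of 145 (exact 95% counting interval 25.6 to 5752). M419DRAFT_128151, tagged as an aminotransferase of class V, had 27, 21 and 23 counts on high melanin necromass, against 1, 0 and 0 on low melanin necromass, a ratio of 67.1 (interval 11.7 to 2689). Such intervals cover counting error only. Both genes stayed at or below 2.37 CPM, a low level, on high melanin necromass.

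Better covered was M419DRAFT_85331, tagged as a zinc-binding intracellular protein, with 9.999, 10.04 and 12.1 CPM on high melanin necromass, against 0.311, 0.618 and 0.0479 CPM on low melanin necromass (log2 fold change 4.98, SE 0.36, edgeR adjusted p = 0.000107). A photolyase-type gene, M419DRAFT_128803, whose family repairs ultraviolet damage in DNA with the energy of light or serves as a light receptor, had 1.74, 2.41 and 1.598 CPM on high melanin necromass, against 0.104, 0.177 and 0 CPM on low melanin necromass (log2 fold change 4.25, SE 0.51, edgeR adjusted p = 0.000705). The groups lay far apart for both. M419DRAFT_119586, with an orthologous-group tag only, stood at 10.04, 10.4 and 12.1 CPM on high melanin necromass, against 0.932, 0.927 and 0.623 CPM on low melanin necromass (log2 fold change 3.70, SE 0.19, edgeR adjusted p = 3.83e-05), and M419DRAFT_69405, with no annotation entry, at 2.46, 1.75 and 1.598 CPM on high melanin necromass, against 0.104, 0.221 and 0.0479 CPM on low melanin necromass (log2 fold change 3.88, edgeR adjusted p = 0.000533). M419DRAFT_140582, tagged as a cyclohexanone monooxygenase, had a log2 fold change of 3.62 at a mean below 1 CPM on high melanin necromass (edgeR adjusted p = 0.00426). The other 3 of the 10 largest increases were 2 chitinases and an AA1 multicopper oxidase, described below with their families.

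Among the 10 largest decreases were 3 peptidases, described below, and transport genes. M419DRAFT_76497, a transporter of the monocarboxylate family, was without a count on high melanin necromass (0, 0 and 0), against 18, 31 and 39 counts on low melanin necromass. With a floor of 3 counts per library, its level on high melanin necromass was at least 10.2-fold lower. M419DRAFT_139005, tagged as a calcium-transporting ATPase, an ion pump, had 9.702, 8.33 and 10.8 CPM on high melanin necromass, against 133, 79.4 and 147 CPM on low melanin necromass (log2 fold change −3.64, SE 0.23, edgeR adjusted p = 9.95e-05). Its groups lay far apart. M419DRAFT_26383, with an orthologous-group tag only, and M419DRAFT_78918, listed without annotation, had log2 fold changes of −3.06 and −3.29 (edgeR adjusted p = 0.000123 and 0.00056), the first with 10.9, 10.5 and 6.49 CPM on high melanin necromass, against 67.4, 63.8 and 102 CPM on low melanin necromass.

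M419DRAFT_6709, with no annotation entry, had 0.424, 0.438 and 0.1997 CPM on high melanin necromass, against 5.59, 3.796 and 9.01 CPM on low melanin necromass (log2 fold change −4.06, SE 0.42, edgeR adjusted p = 0.000402), and M419DRAFT_39421, likewise without one, had 0.381, 0.307 and 0.1997 CPM on high melanin necromass, against 2.69, 1.37 and 2.54 CPM on low melanin necromass (log2 fold change −2.84, edgeR adjusted p = 0.00113). The last of the 10 was M419DRAFT_108458, a glycosyltransferase of family GT32, with 0.127, 0 and 0.449 CPM on high melanin necromass, against 1.502, 1.72 and 0.958 CPM on low melanin necromass (log2 fold change −2.90, SE 0.62, edgeR adjusted p = 0.00873). This gene stood at 304 CPM on glucose, so its level was 0.064% of the glucose level on high and 0.46% on low melanin necromass. Of the genes tested, 21 had a mean under 1% of their glucose mean on a necromass type, and 11 of these were called lower on high melanin necromass by edgeR. Over all genes tested 14.9% were called lower. The 21 genes were picked by their low necromass means, so their direction is not independent of that choice. Of these 21, 0 were called higher by edgeR or DESeq2 and 1 was higher at an unadjusted p under 0.05.

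Genes for chitinases of family GH18, which cut the chitin chain, were mostly higher on high melanin necromass. Of 12 GH18 genes tested, 7 rose on high melanin necromass and 2 fell, each by more than 2-fold, and 3 did not pass the test. Over all genes tested 16.7% rose and 14.9% fell. The median log2 fold change of the 12 was 1.19, against −0.01 over all genes.

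The most abundant of them, M419DRAFT_124526, had 481, 558 and 516 CPM on high melanin necromass, against 192, 272 and 182 CPM on low melanin necromass (log2 fold change 1.27, SE 0.15, edgeR adjusted p = 0.000705). M419DRAFT_133349, which carries a cellulose-binding module of family CBM1 beside its chitinase domain, had 25.1, 42.5 and 25.5 CPM on high melanin necromass, against 3.73, 4.19 and 2.396 CPM on low melanin necromass (log2 fold change 3.17, SE 0.26, edgeR adjusted p = 0.000183), and M419DRAFT_7503 had 25.8, 33.9 and 27.2 CPM on high melanin necromass, against 5.44, 7.24 and 6.996 CPM on low melanin necromass (log2 fold change 2.14, SE 0.15, edgeR adjusted p = 0.000101). In all 3 every high melanin library was above every low melanin library. M419DRAFT_86290 and M419DRAFT_104468, with CBM1 modules as well, and M419DRAFT_94061 had only traces on low melanin necromass. M419DRAFT_86290 had 2.12, 4.51 and 1.598 CPM on high melanin necromass, against 0.0518, 0.221 and 0.144 CPM on low melanin necromass (log2 fold change 4.22, SE 0.60, edgeR adjusted p = 0.00133). M419DRAFT_104468 reached 1.27 to 2.98 CPM and M419DRAFT_94061 2.12 to 3.07 CPM on high melanin necromass, while no low melanin library exceeded 0.287 CPM for either (log2 fold changes 3.64 and 3.55). M419DRAFT_79622 rose by less, with 46.6, 43.6 and 49.6 CPM on high melanin necromass, against 20.4, 26.4 and 17.4 CPM on low melanin necromass (log2 fold change 1.12, SE 0.14, edgeR adjusted p = 0.000857).

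Not all chitinases followed. M419DRAFT_142123 fell, with 59.3, 66.9 and 70.5 CPM on high melanin necromass, against 147, 172 and 271 CPM on low melanin necromass (log2 fold change −1.59, SE 0.20, edgeR adjusted p = 0.000857), and stood at 2239 CPM on glucose. M419DRAFT_130024 fell too, with 1.91, 2.41 and 2.197 CPM on high melanin necromass, against 8.03, 10.3 and 14.9 CPM on low melanin necromass (log2 fold change −2.35, SE 0.24, edgeR adjusted p = 0.000397), and had 0 counts in the glucose libraries. The GH18 gene with the most counts after M419DRAFT_124526, M419DRAFT_142298, had 429, 354 and 286 CPM on high melanin necromass, against 273, 484 and 249 CPM on low melanin necromass and overlapped between the groups (log2 fold change 0.09, SE 0.24, edgeR adjusted p = 0.812). M419DRAFT_114979 and M419DRAFT_33160 overlapped as well, with log2 fold changes of 0.21 and 0.37 (edgeR adjusted p = 0.262 and 0.155). The summed share of all counts taken by GH18 genes was 0.106, 0.114 and 0.0947% on high and 0.0721, 0.103 and 0.0799% on low melanin necromass, overlapping between the groups (exact permutation p = 0.2, two-sided, where 0.1 is the smallest p that 3 against 3 libraries allow). Leaving out a library left these 9 calls in place, and between 7 and 9 GH18 genes rose in those fits.

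**Figure D2:**
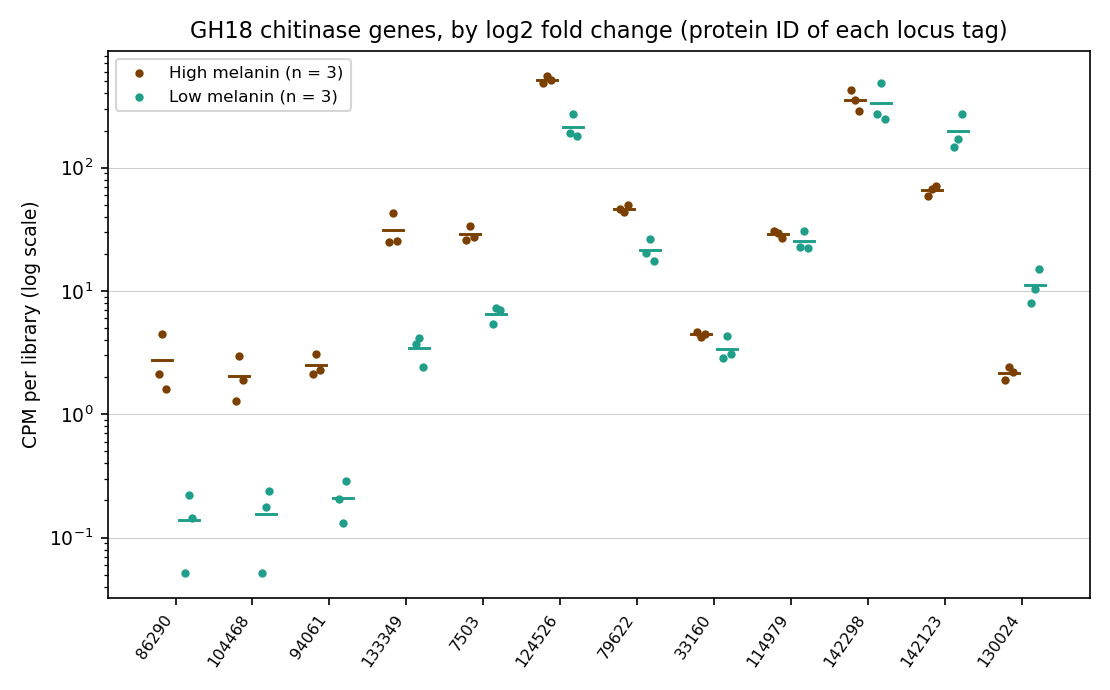
CPM of the 12 GH18 chitinase genes in each library (y axis, log scale), ordered by log2 fold change and labelled with the protein ID that ends each locus tag. Brown points are the 3 high melanin and green points the 3 low melanin libraries, and bars are their means. For the 7 genes on the left every high melanin library lies above every low melanin library, the next 3 overlap, and the 2 on the right are lower on high melanin necromass.

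Genes that act beside the chitinases were split. The lytic polysaccharide monooxygenases of family AA11 cleave chitin by oxidation. Of the 3 AA11 genes, M419DRAFT_135815 rose at a low level, with 0.89, 1.71 and 0.699 CPM on high melanin necromass, against 0.155, 0.353 and 0.144 CPM on low melanin necromass (log2 fold change 2.29, SE 0.51, edgeR adjusted p = 0.0103). M419DRAFT_71162 fell, with 16.1, 16.3 and 11.3 CPM on high melanin necromass, against 34.4, 40.96 and 55.2 CPM on low melanin necromass (log2 fold change −1.57, SE 0.19, edgeR adjusted p = 0.000778). M419DRAFT_97768, the most abundant over the 6 libraries, had 41.01, 44.4 and 39.8 CPM on high melanin necromass, against 36.5, 40.2 and 33.5 CPM on low melanin necromass and overlapped between the groups (log2 fold change 0.18, edgeR adjusted p = 0.153). M419DRAFT_7256, of family GH20, whose enzymes release N-acetylglucosamine from chitin fragments, rose, averaging 9.68 ± 0.943 CPM on high and 5.46 ± 1.53 CPM on low melanin necromass (SD, n = 3 each, log2 fold change 0.82, SE 0.19, edgeR adjusted p = 0.0129). M419DRAFT_71653, an α-N-acetylglucosaminidase of family GH89, fell (log2 fold change −1.37, edgeR adjusted p = 0.0109), and the chitosanase M419DRAFT_57859 of family GH75 was at 1.19 to 1.75 CPM in all 6 libraries (edgeR adjusted p = 0.513). M419DRAFT_71162 and M419DRAFT_7256 did not pass in the fit of all 9 libraries (edgeR adjusted p = 0.124 and 0.602).

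Cellulases took a large part of all mRNA on both substrates and a larger one on high melanin necromass. The 10 core cellulase and AA9 genes, AA9 being the oxidative enzymes that break crystalline cellulose, together took 30.6, 27.6 and 31.7% of the counts on high melanin necromass, against 18.96, 23.5 and 19.9% on low melanin necromass. The means were 29.96 ± 2.15% and 20.8 ± 2.38% (SD, n = 3 each), a difference of 9.20 percentage points. The groups did not overlap, and the exact two-sided permutation p was 0.1, the smallest that 3 against 3 allow. In glucose cultures the share was between 0.0868 and 0.150%. The 10 genes of highest mean CPM, of which 7 belong to the cellulase list, took 34.1, 31.0 and 35.7% of counts on high and 23.9, 27.7 and 24.6% on low melanin necromass (exact permutation p = 0.1, two-sided).

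Gene by gene, 5 of the 10 rose and 2 fell, with a median log2 fold change of 0.62. Among all genes tested 16.7% rose and 14.9% fell. Tested genes with an annotation entry numbered 2010, of which 560 rose and 441 fell. For the 10 cellulase and AA9 genes, the share that rose was above that of annotated genes, and the share that fell was slightly below it. The smallest p was that of the AA9 gene M419DRAFT_139633, with 11371, 10334 and 11417 CPM on high melanin necromass, against 3781, 5039 and 3575 CPM on low melanin necromass (log2 fold change 1.42, SE 0.17, edgeR adjusted p = 0.00072). The cellobiohydrolase of family GH6, M419DRAFT_122470, which releases cellobiose from chain ends, had 85679.9, 77331 and 92084 CPM on high melanin necromass, against 42622, 57960.2 and 44791 CPM on low melanin necromass (log2 fold change 0.81, SE 0.24, edgeR adjusted p = 0.0292). The second AA9 gene, M419DRAFT_122518, rose with a log2 fold change of 0.71, the endoglucanase M419DRAFT_72489 of family GH5_5 with 0.65 and M419DRAFT_25940 of family GH45 with 0.65 (edgeR adjusted p = 0.0373, 0.0276 and 0.0195). M419DRAFT_125125, the GH7 gene that took the most counts of any gene, had 101133, 87039 and 111422 CPM on high melanin necromass, against 57668, 78122 and 62939.9 CPM on low melanin necromass. Its groups did not overlap, yet it did not pass the test (log2 fold change 0.59, SE 0.25, edgeR adjusted p = 0.0981). The other GH7 gene, M419DRAFT_5304, overlapped (log2 fold change −0.05, edgeR adjusted p = 0.817). M419DRAFT_122470, M419DRAFT_122518, M419DRAFT_72489 and M419DRAFT_25940 did not pass in the fit of all 9 libraries (edgeR adjusted p = 0.104, 0.123, 0.116 and 0.0934). Among the 10 genes, only M419DRAFT_139633 was called higher in every fit that left out 1 library. Without high melanin replicate 1, 2 or 3, or low melanin replicate 1 or 3, M419DRAFT_122470, M419DRAFT_122518 and M419DRAFT_72489 did not pass, with edgeR adjusted p between 0.0549 and 0.142, and 6 of the 10 were called higher without low melanin replicate 2.

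Not every member was higher. M419DRAFT_111943, a GH74 xyloglucanase, fell, with 2235, 1980.2 and 1442 CPM on high melanin necromass, against 3005, 2764 and 3244 CPM on low melanin necromass (log2 fold change −0.67, SE 0.17, edgeR adjusted p = 0.0157). So did the GH12 gene M419DRAFT_97721 (log2 fold change −0.44, edgeR adjusted p = 0.00427), whereas the abundant GH12 gene M419DRAFT_124438 had 10194, 10063 and 11702 CPM on high melanin necromass, against 11831, 13959.6 and 13139.8 CPM on low melanin necromass and did not pass the test (log2 fold change −0.28, edgeR adjusted p = 0.192). M419DRAFT_111943 and M419DRAFT_97721 did not pass in the fit of all 9 libraries (edgeR adjusted p = 0.0644 and 0.128). Leaving out 1 library ended the call for M419DRAFT_111943 without low melanin replicate 1 (adjusted p = 0.0558).

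**Figure D3:**
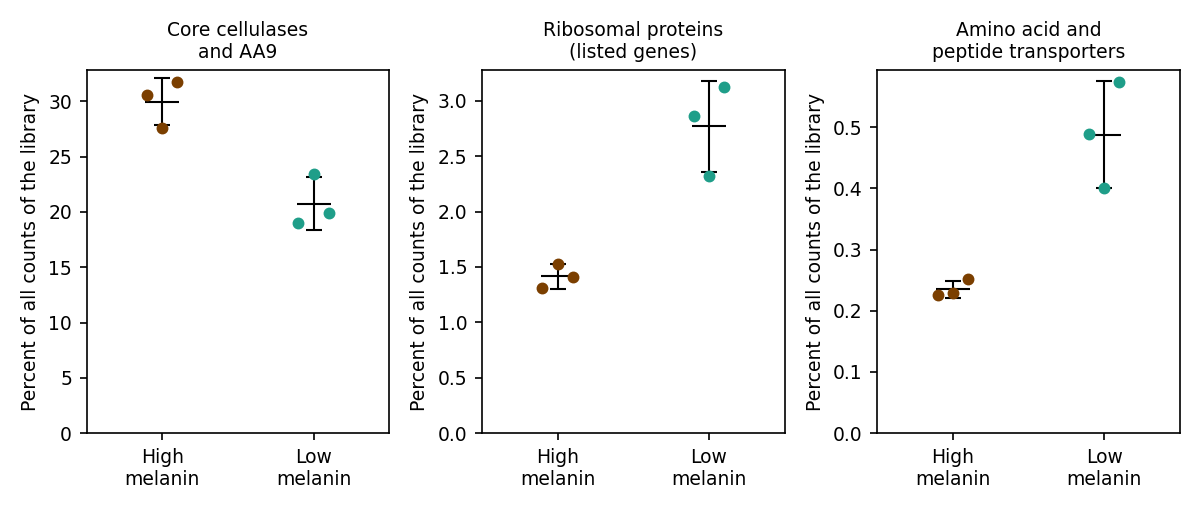
Share of all counts of a library (y axis, percent) taken by 3 gene lists in the high melanin (left, brown) and low melanin (right, green) libraries. Points are single libraries, and the black bars give the mean and SD of 3. Core cellulases and AA9 took a larger share on high melanin necromass, and ribosomal proteins and amino acid and peptide transporters a smaller one, with no overlap between the groups in any of the 3 panels.

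Genes for enzymes on other plant-type polysaccharides rose more often than they fell. Of 24 hemicellulase genes 11 rose (45.8%, against 16.7% of all genes) and 2 fell (8.33%, against 14.9%), with a median log2 fold change of 0.35. Of 10 β-glucosidase-type genes of families GH1 and GH3, 5 rose and 1 fell (median 0.33, with 3 higher in each fit without 1 library other than low melanin replicate 2). With all 9 libraries in the fit 6 hemicellulase and 3 GH1 or GH3 genes rose and 0 of either list fell, while in the 6 libraries DESeq2 called 3 and 1 lower and 3 and 1 were lower at an unadjusted p under 0.05. M419DRAFT_125575, a CE15 glucuronoyl esterase, had 3229.6, 3483 and 3652 CPM on high melanin necromass, against 1389.9, 1765 and 1240.3 CPM on low melanin necromass (log2 fold change 1.24, SE 0.15, edgeR adjusted p = 0.000721), and the GH30_7 gene M419DRAFT_93498 had 2227, 2242 and 2422 CPM on high melanin necromass, against 992, 1355 and 1008 CPM on low melanin necromass (log2 fold change 1.04, SE 0.14, edgeR adjusted p = 0.00114). Both were more than 2-fold higher on high melanin necromass. M419DRAFT_88887, an esterase of family CE5, had 17.8, 23.3 and 23.7 CPM on high melanin necromass, against 4.19, 5.78 and 4.89 CPM on low melanin necromass (log2 fold change 2.12, SE 0.16, edgeR adjusted p = 0.00012), and another CE5 gene, M419DRAFT_76732, fell, averaging 34.9 ± 3.02 CPM on high and 67.4 ± 12.8 CPM on low melanin necromass (SD, n = 3 each, log2 fold change −0.95, edgeR adjusted p = 0.00125). M419DRAFT_12566, a GH36 α-galactosidase, fell as well (log2 fold change −0.51, edgeR adjusted p = 0.0206). The most abundant member, the GH10 xylanase M419DRAFT_23616, had 2988 ± 353 CPM on high and 2959 ± 279 CPM on low melanin necromass and did not pass the test (edgeR adjusted p = 0.945). M419DRAFT_76732 and M419DRAFT_12566 did not pass in the fit of all 9 libraries (edgeR adjusted p = 0.135 and 0.0827). No call was made for M419DRAFT_12566 without low melanin replicate 1 (adjusted p = 0.0734).

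Among the β-glucosidase-type genes, which split cellobiose and other glucosides, the GH3 genes M419DRAFT_109567 and M419DRAFT_82126 rose by log2 fold changes of 0.96 and 0.88 (edgeR adjusted p = 0.000427 and 0.00053). M419DRAFT_109567 had 184, 172 and 181 CPM on high melanin necromass, against 82.97, 107 and 86.2 CPM on low melanin necromass. Another GH3 gene, M419DRAFT_140746, fell, with 815, 770.4 and 912 CPM on high melanin necromass, against 1263, 1138 and 1356 CPM on low melanin necromass (log2 fold change −0.59, SE 0.11, edgeR adjusted p = 0.00496). M419DRAFT_127115, of family GH1 and the most abundant, stood at 4324 ± 894 CPM on high and 4118 ± 636 CPM on low melanin necromass and did not pass the test (edgeR adjusted p = 0.796). M419DRAFT_140746 did not pass in the fit of all 9 libraries (edgeR adjusted p = 0.0736).

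Glucanases that act on the β-1,3- and β-1,6-glucans of fungal walls moved in both directions. Of 18 listed genes 16 were tested, 7 rose (43.8%, against 16.7% of all genes) and 6 fell (37.5%, against 14.9%). Their median log2 fold change was −0.03, close to that of all genes. Family GH16 held the largest changes. M419DRAFT_103726 had 396, 370.3 and 354 CPM on high melanin necromass, against 175, 196 and 195 CPM on low melanin necromass (log2 fold change 0.98, SE 0.09, edgeR adjusted p = 0.000195). M419DRAFT_93445 and M419DRAFT_95463 rose too and had only traces on low melanin necromass, the first with 1.27, 1.096 and 1.398 CPM on high melanin necromass, against 0.363, 0.132 and 0.192 CPM on low melanin necromass (log2 fold change 2.46, SE 0.37, edgeR adjusted p = 0.00181) and the second with a log2 fold change of 2.98 (edgeR adjusted p = 0.00141). M419DRAFT_111701 fell, with 2.63, 2.45 and 2.197 CPM on high melanin necromass, against 9.48, 7.86 and 12.6 CPM on low melanin necromass (log2 fold change −2.03, SE 0.20, edgeR adjusted p = 0.000333), and stood at 217 CPM on glucose. The 3 listed GH17 genes, whose family includes β-1,3-glucanases and glucan-remodelling enzymes of the fungus's own wall, fell. M419DRAFT_103726 did not pass in the fit of all 9 libraries (edgeR adjusted p = 0.0835).

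The GH17 gene M419DRAFT_141702 had 34.1, 37.03 and 34.95 CPM on high melanin necromass, against 97.5, 90.2 and 167 CPM on low melanin necromass (log2 fold change −1.74, SE 0.21, edgeR adjusted p = 0.00072), and M419DRAFT_110434 and M419DRAFT_124460 had log2 fold changes of −0.89 and −0.84 (edgeR adjusted p = 0.00207 and 0.00175). These 3 genes stood between 241 and 1020.3 CPM on glucose, above both necromass types. The GH55 gene M419DRAFT_68137 and the GH64 gene M419DRAFT_125427, families that degrade β-1,3-glucan, rose by log2 fold changes of 1.02 and 0.39 (edgeR adjusted p = 0.00207 and 0.00597). Of 2 GH71 α-1,3-glucanase genes, M419DRAFT_75378 rose (log2 fold change 0.50, edgeR adjusted p = 0.0389). Enzymes on α-mannan, the outer wall polymer, showed 2 increases and 3 decreases among 10 genes (median −0.05), with 1 decrease without low melanin replicate 1 or 3. The GH92 α-mannosidase M419DRAFT_71164 had 195, 177 and 169.5 CPM on high melanin necromass, against 67.9, 102 and 66.8 CPM on low melanin necromass (log2 fold change 1.19, SE 0.16, edgeR adjusted p = 0.000982), M419DRAFT_94562 of the same family rose by 0.33, and the GH125 gene M419DRAFT_12995 and the GH76 gene M419DRAFT_103113 fell by 0.42 and 0.34 on the log2 scale (edgeR adjusted p = 0.0259, 0.00505 and 0.0175). The most abundant, the GH47 gene M419DRAFT_101105, did not pass the test (edgeR adjusted p = 0.308). M419DRAFT_68137, M419DRAFT_75378, M419DRAFT_94562, M419DRAFT_12995 and M419DRAFT_103113 did not pass in the fit of all 9 libraries (edgeR adjusted p = 0.13, 0.134, 0.653, 0.245 and 0.456). The threshold was missed by M419DRAFT_75378 without high melanin replicate 2 or 3 or low melanin replicate 2 or 3 (adjusted p from 0.0602 to 0.131), M419DRAFT_94562 without high melanin replicate 2 or 3 or low melanin replicate 1 or 3 (adjusted p from 0.0662 to 0.0925) and M419DRAFT_103113 without high melanin replicate 1 or low melanin replicate 1 or 3 (adjusted p from 0.0501 to 0.0766).

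Over all carbohydrate-active enzyme genes, 140 were listed and 136 tested. Of these 53 rose (39.0%, against 16.7% of all genes) and 33 fell (24.3%, against 14.9%), with a median log2 fold change of 0.25. Of the 2010 tested genes with an annotation entry, 560 rose and 441 fell. With all 9 libraries 29 carbohydrate-active enzyme genes rose and 17 fell, and under library-size scaling 46 and 37. Glycosyltransferases, which build glycans and the fungus's own wall, were balanced, with 6 of 17 higher and 6 lower. That is 35.3% each, against 16.7% and 14.9% of all genes. Without high melanin replicate 1 or low melanin replicate 1, 5 were higher and 3 lower. M419DRAFT_91596, an α-mannosyltransferase of family GT15, had 328, 329 and 339 CPM on high melanin necromass, against 109, 144 and 111 CPM on low melanin necromass (log2 fold change 1.45, SE 0.11, edgeR adjusted p = 0.000137), and M419DRAFT_89863 of family GT4 rose by 1.49 on the log2 scale. The most abundant, M419DRAFT_82061 of family GT2, which includes chitin synthases, rose, averaging 1030.2 ± 89.9 CPM on high and 696 ± 62.7 CPM on low melanin necromass (SD, n = 3 each, log2 fold change 0.57, SE 0.11, edgeR adjusted p = 0.00544). The GT32 genes M419DRAFT_108301 and M419DRAFT_82054 fell (log2 fold changes −0.62 and −1.79, edgeR adjusted p = 0.000724 and 0.00117). M419DRAFT_82061 did not pass in the fit of all 9 libraries (edgeR adjusted p = 0.28).

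Among genes for oxidative enzymes that could meet phenolic or melanin-like substrates, the listed AA1 genes were low in counts. Of 5 AA1 multicopper oxidase genes, 2 rose, 1 fell and 2 did not pass the test. Among all genes tested 16.7% rose and 14.9% fell. Tested genes with an annotation entry numbered 2010, of which 560 rose and 441 fell. The share of AA1 genes that rose was above that of annotated genes, and the share that fell was slightly below it. With 5 genes, each share rests on 1 or 2 calls. M419DRAFT_104519, tagged as an ascorbate-oxidase-type enzyme within AA1, had 10.1, 6.22 and 7.74 CPM on high melanin necromass, against 0.466, 0.662 and 0.671 CPM on low melanin necromass (log2 fold change 3.72, SE 0.26, edgeR adjusted p = 0.000101), a 13.2-fold difference, and 0 counts on glucose. M419DRAFT_88862, tagged as a laccase, had 23.5, 21.2 and 34.9 CPM on high melanin necromass, against 8.701, 17.8 and 7.24 CPM on low melanin necromass (log2 fold change 1.23, SE 0.32, edgeR adjusted p = 0.0187). M419DRAFT_92940 fell, with 2.71, 2.89 and 2.197 CPM on high melanin necromass, against 5.44, 4.105 and 4.94 CPM on low melanin necromass (log2 fold change −0.88, SE 0.18, edgeR adjusted p = 0.00681). M419DRAFT_36885 and M419DRAFT_86804 had log2 fold changes of 0.36 and −0.01 (edgeR adjusted p = 0.0959 and 0.984). M419DRAFT_88862 did not pass in the fit of all 9 libraries (edgeR adjusted p = 0.0622). Leaving out 1 library ended the call for M419DRAFT_88862 without high melanin replicate 3 or low melanin replicate 1 or 3 (adjusted p from 0.053 to 0.077).

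Neither of the 2 tyrosinase genes, whose products oxidise tyrosine and other phenols, passed the test in edgeR or DESeq2, and 0 of them had an unadjusted p under 0.05. The one with more counts, M419DRAFT_142431, was at 1.03 ± 0.209 CPM on high and 0.7902 ± 0.174 CPM on low melanin necromass (SD, n = 3 each, edgeR adjusted p = 0.339). None of 5 catalase genes, which break down hydrogen peroxide, was called by edgeR, with 1 higher and 1 lower at an unadjusted p under 0.05. Without high melanin replicate 3, 2 of them were called lower, and without low melanin replicate 2, 1 higher. The most abundant, M419DRAFT_70058, had 60.1 ± 5.68 CPM on high and 71.9 ± 4.17 CPM on low melanin necromass (edgeR adjusted p = 0.0511), and DESeq2 also called 0 of the 5. Among 22 cytochrome P450 genes tested, which add oxygen to many small molecules, 9 rose (40.9%, against 16.7% of all genes) and 6 fell (27.3%, against 14.9%). Their median was 0.45, and with all 9 libraries 4 rose and 2 fell. M419DRAFT_38294 had 941, 835 and 1062 CPM on high melanin necromass, against 562, 612 and 491 CPM on low melanin necromass (log2 fold change 0.77, SE 0.12, edgeR adjusted p = 0.00241), and M419DRAFT_89022 and M419DRAFT_85229 rose by log2 fold changes of 1.498 and 1.03, while M419DRAFT_69614 and M419DRAFT_107898 fell by 0.60 and 0.89 on the log2 scale (edgeR adjusted p = 0.000183, 0.000386, 0.00248 and 0.00265).

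Peptidase genes were more often lower on high melanin necromass. Of 68 listed genes with a peptidase tag 67 were tested, 14 rose (20.9%, against 16.7% of all genes) and 25 fell (37.3%, against 14.9%), with a median log2 fold change of −0.24. Among the 2010 tested genes with an annotation entry, 560 rose and 441 fell. The share of peptidase genes that rose was thus below that of annotated genes, and the share that fell was above it. The listed genes took 0.247, 0.256 and 0.232% of all counts on high melanin necromass, against 0.37, 0.333 and 0.418% on low melanin necromass, without overlap (exact permutation p = 0.1, two-sided). That is not the share of all peptidase genes. The list lacks M419DRAFT_124811, described below, which has the enzyme class of serine endopeptidases and took more counts than the whole list. With all 9 libraries in the fit 8 of the listed genes rose and 12 fell. Without low melanin replicate 1 only 9 rose, and without low melanin replicate 3 only 16 fell. Some members are not proteases by their other tags, so the list is wider than its name. M419DRAFT_8573, with the enzyme class of a carboxylesterase beside its family S9 tag, fell, averaging 103 ± 18.6 CPM on high and 235 ± 41.2 CPM on low melanin necromass (SD, n = 3 each, log2 fold change −1.19, SE 0.16, edgeR adjusted p = 0.00101).

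The decreases included endopeptidases and aminopeptidases. M419DRAFT_33709, a leucine-aminopeptidase-type gene of family M28, had 0.466, 0.964 and 0.599 CPM on high melanin necromass, against 11.3, 13.6 and 18.6 CPM on low melanin necromass (log2 fold change −4.41, SE 0.28, edgeR adjusted p = 9.95e-05). M419DRAFT_24449, a subtilisin-type serine peptidase of family S8, had 3.47, 8.02 and 5.84 CPM on high melanin necromass, against 58.8, 53.01 and 73.1 CPM on low melanin necromass (log2 fold change −3.42, SE 0.25, edgeR adjusted p = 0.000115). The groups lay far apart for both. M419DRAFT_26778, of family S28, had 13.4, 15.4 and 12.8 CPM on high melanin necromass, against 90.8, 89.9 and 179 CPM on low melanin necromass (log2 fold change −3.11, SE 0.27, edgeR adjusted p = 0.000195), and M419DRAFT_93102, a fungalysin-type metallopeptidase of family M36, had 1.57, 1.31 and 0.999 CPM on high melanin necromass, against 5.49, 7.72 and 13.8 CPM on low melanin necromass (log2 fold change −2.78, SE 0.36, edgeR adjusted p = 0.000932). A second S8 gene, M419DRAFT_141494, was the most abundant of these, with 72.2, 79.9 and 98.3 CPM on high melanin necromass, against 294, 252 and 422 CPM on low melanin necromass (log2 fold change −1.95, SE 0.19, edgeR adjusted p = 0.000326). M419DRAFT_86339, with a family M6 tag, fell, averaging 31.03 ± 0.728 CPM on high and 75.2 ± 17.4 CPM on low melanin necromass (SD, n = 3 each, log2 fold change −1.28, edgeR adjusted p = 0.000585).

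M419DRAFT_116864, a tripeptidyl-peptidase-type gene of family S53, had 0.847, 0.701 and 2.05 CPM on high melanin necromass, against 5.65, 6.002 and 6.56 CPM on low melanin necromass (log2 fold change −2.37, SE 0.32, edgeR adjusted p = 0.00104). It stood at 1687 CPM on glucose, so its necromass levels were 0.072% and 0.36% of that on high and low melanin necromass. Other peptidase genes rose. M419DRAFT_76688, a glutamic peptidase of family G1, had 9.32, 8.98 and 12.1 CPM on high melanin necromass, against 0.57, 1.99 and 1.34 CPM on low melanin necromass (log2 fold change 2.93, SE 0.31, edgeR adjusted p = 0.000406). M419DRAFT_133453, a dipeptidase-type gene of family M19, had 3.22, 3.02 and 3.595 CPM on high melanin necromass, against 0.984, 0.794 and 0.527 CPM on low melanin necromass (log2 fold change 2.09, SE 0.24, edgeR adjusted p = 0.000619), and M419DRAFT_80179, a carboxypeptidase of family M14, had 5.85, 6.88 and 6.14 CPM on high melanin necromass, against 2.38, 4.28 and 1.96 CPM on low melanin necromass (log2 fold change 1.12, SE 0.26, edgeR adjusted p = 0.0115). No library of one necromass type overlapped with the other for any of these. The list member with most counts, M419DRAFT_107701, tagged with both a peptidase family and a peroxisomal import complex, fell, averaging 227 ± 14.9 CPM on high and 429 ± 77.6 CPM on low melanin necromass (SD, n = 3 each, log2 fold change −0.92, edgeR adjusted p = 0.00134). No call was made for M419DRAFT_80179 without low melanin replicate 1 (adjusted p = 0.0503).

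**Figure D4:**
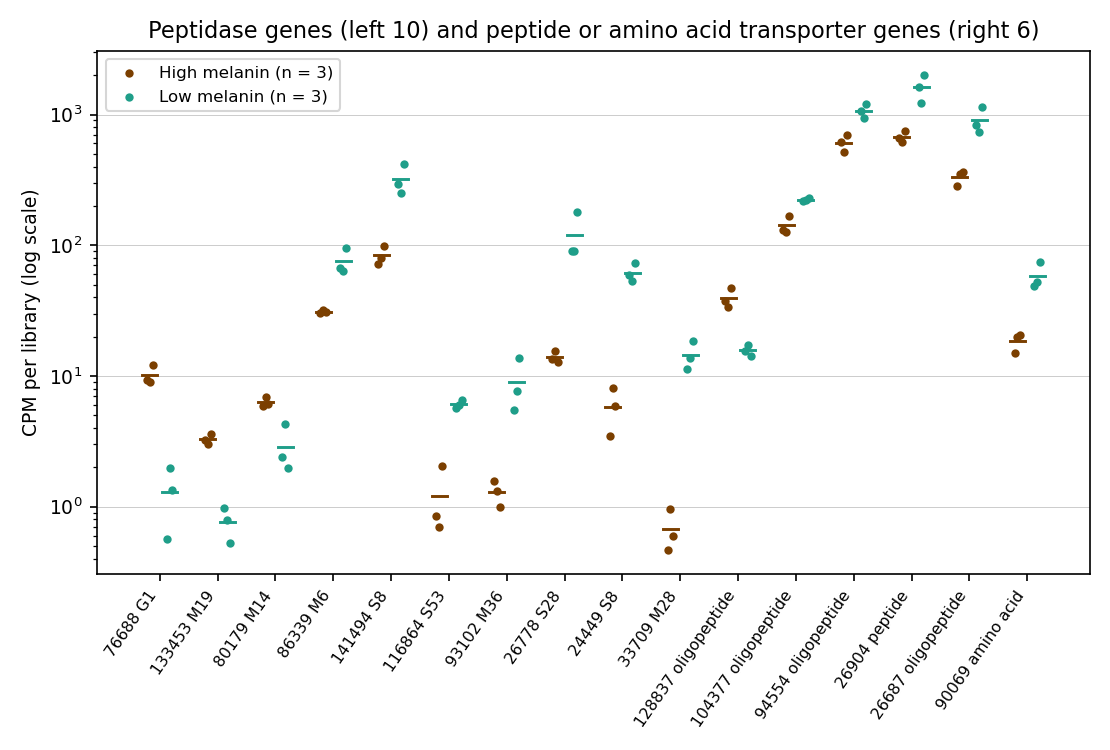
CPM per library (y axis, log scale) of 10 peptidase genes and 6 transporter genes for peptides or amino acids, labelled with the protein ID of the locus tag and the family. Brown points are the 3 high melanin and green points the 3 low melanin libraries, and bars are means. The G1, M19 and M14 peptidase genes and the transporter gene M419DRAFT_128837 are higher on high melanin necromass and the other 12 lower, with no overlap between the groups.

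Genes for amino acid and peptide transporters were more often lower too. Of 21 such genes 10 fell (47.6%, against 14.9% of all genes) and 2 rose (9.52%, against 16.7%), and the median log2 fold change was −0.46. The 21 genes took 0.225, 0.228 and 0.251% of counts on high melanin necromass, against 0.49, 0.4000 and 0.575% on low melanin necromass, a ratio of 0.481 (exact permutation p = 0.1, two-sided). In the fit of all 9 libraries 1 rose and 3 fell. The peptide transporter M419DRAFT_26904 had 661, 621 and 747 CPM on high melanin necromass, against 1627, 1215 and 2022 CPM on low melanin necromass (log2 fold change −1.26, SE 0.18, edgeR adjusted p = 0.00128). The oligopeptide transporter M419DRAFT_26687 had 286, 353 and 360.3 CPM on high melanin necromass, against 838, 738 and 1137 CPM on low melanin necromass (log2 fold change −1.44, SE 0.17, edgeR adjusted p = 0.000637), and M419DRAFT_94554 of the same family had 612, 520.3 and 696 CPM on high melanin necromass, against 1071, 933 and 1206 CPM on low melanin necromass (log2 fold change −0.81, SE 0.14, edgeR adjusted p = 0.00304). Every high melanin library was below every low melanin library for all 3. M419DRAFT_26904 and M419DRAFT_94554 did not pass in the fit of all 9 libraries (edgeR adjusted p = 0.366 and 0.174).

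Another oligopeptide transporter, M419DRAFT_104377, fell by 0.65 on the log2 scale (edgeR adjusted p = 0.00304). Of the amino acid permeases, M419DRAFT_90069 had 15.04, 19.9 and 20.5 CPM on high melanin necromass, against 48.6, 52.1 and 74.9 CPM on low melanin necromass (log2 fold change −1.67, SE 0.18, edgeR adjusted p = 0.000476), and M419DRAFT_86271 fell by 0.53 on the log2 scale (edgeR adjusted p = 0.00294). Against this direction, the oligopeptide transporter M419DRAFT_128837 had 37.4, 33.7 and 47.1 CPM on high melanin necromass, against 15.6, 17.2 and 14.3 CPM on low melanin necromass (log2 fold change 1.33, SE 0.14, edgeR adjusted p = 0.000397), and the permease M419DRAFT_126545 rose by 0.37 (edgeR adjusted p = 0.0486). M419DRAFT_86271 and M419DRAFT_126545 did not pass in the fit of all 9 libraries (edgeR adjusted p = 0.0554 and 0.179). The threshold was missed by M419DRAFT_126545 without high melanin replicate 1 or 2 or low melanin replicate 1 or 2 (adjusted p from 0.112 to 0.128).

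Genes for sugar porters, the permeases that bring released sugars into the cell, were more often higher. Of 30 genes 14 rose (46.7%, against 16.7% of all genes) and 3 fell (14.9% of all genes did), with a median log2 fold change of 0.29. In the fit of all 9 libraries 6 rose and 0 fell (3 fell at an unadjusted p under 0.05 and 3 by DESeq2 in the 6 libraries), and without low melanin replicate 1 edgeR called 10 higher and 0 lower. M419DRAFT_79592 had 64.4, 95.4 and 76.4 CPM on high melanin necromass, against 19.7, 29.7 and 19.2 CPM on low melanin necromass (log2 fold change 1.78, SE 0.19, edgeR adjusted p = 0.000476), and M419DRAFT_79984 had 91.9, 107 and 101.3 CPM on high melanin necromass, against 32.3, 40.1 and 31.3 CPM on low melanin necromass (log2 fold change 1.53, SE 0.11, edgeR adjusted p = 0.000101). Fold differences were 3.43 and 2.89. M419DRAFT_138519 rose at a higher level, with 1544, 1673 and 1749 CPM on high melanin necromass, against 1100.0, 1264 and 991 CPM on low melanin necromass (log2 fold change 0.57, SE 0.12, edgeR adjusted p = 0.00813). The most abundant porter, M419DRAFT_109243, had 26399, 24521 and 27386 CPM on high melanin necromass, against 22686, 25629 and 21388 CPM on low melanin necromass and overlapped between the groups (log2 fold change 0.17, SE 0.18, edgeR adjusted p = 0.499), and the share of counts taken by all sugar porters overlapped too, at 2.99, 2.92 and 3.02% on high and 2.83, 3.02 and 2.59% on low melanin necromass (exact permutation p = 0.3, two-sided). M419DRAFT_106322 and M419DRAFT_83782 fell (log2 fold changes −0.41 and −0.79, edgeR adjusted p = 0.0217 and 0.0246). M419DRAFT_138519, M419DRAFT_106322 and M419DRAFT_83782 did not pass in the fit of all 9 libraries (edgeR adjusted p = 0.12, 0.564 and 0.0735). Leaving out 1 library ended the call for M419DRAFT_106322 without low melanin replicate 1 (adjusted p = 0.0691) and M419DRAFT_83782 without high melanin replicate 1 or 3 or low melanin replicate 1 or 3 (adjusted p from 0.0582 to 0.0864).

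Of 208 transporter genes of any kind tested, 50 rose (24.0%, against 16.7% of all genes) and 53 fell (25.5%, against 14.9%). These shares were near those of the 2010 tested genes with an annotation entry, of which 560 rose and 441 fell. For the transporter genes, library-size scaling gave 41 higher and 67 lower, and the fit of all 9 libraries 22 and 22. Anion and monocarboxylate symporters showed 7 increases and 5 decreases among 20 (4 increases without low melanin replicate 1, and 3 decreases without high melanin replicate 1 or low melanin replicate 1 or 3), among them M419DRAFT_84399 and M419DRAFT_136222, which rose by log2 fold changes of 1.19 and 1.01, and M419DRAFT_77945, which fell by 0.64 on the log2 scale (edgeR adjusted p = 0.000181, 0.000597 and 0.000669). Both shares of these symporters were above those of all genes, and the share that fell was near the 25.5% of all transporter genes. Drug exporters and ABC transporters had 3 increases (9.09%, against 16.7% of all genes) and 8 decreases (24.2%, against 14.9%) among 33. Of all transporter genes tested 25.5% fell, so the share that fell was no higher among these 33. M419DRAFT_80314 rose by 1.41 and M419DRAFT_26906 by 0.50 on the log2 scale, and M419DRAFT_90048, M419DRAFT_92315 and the most abundant, M419DRAFT_97054, fell by 1.37, 1.38 and 0.52 (edgeR adjusted p = 0.000195, 0.0157, 0.000396, 0.000819 and 0.00404). An aquaporin-family channel for water or glycerol, M419DRAFT_92240, fell, with 168, 197 and 174 CPM on high melanin necromass, against 529.6, 470.0 and 595 CPM on low melanin necromass (log2 fold change −1.57, SE 0.11, edgeR adjusted p = 0.000101). M419DRAFT_136222, M419DRAFT_26906 and M419DRAFT_97054 did not pass in the fit of all 9 libraries (edgeR adjusted p = 0.0644, 0.308 and 0.204). No call was made for M419DRAFT_26906 without high melanin replicate 2 or low melanin replicate 1 (adjusted p from 0.0521 to 0.0634).

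Some of the firmest calls were of moderate size and lay outside these families. Among genes with changes of 2-fold to 4-fold and at least 10 CPM, those of smallest p that rose included the ankyrin-repeat gene M419DRAFT_88145, with 50.5, 44.8 and 51.5 CPM on high melanin necromass, against 17.5, 20.3 and 19.5 CPM on low melanin necromass (log2 fold change 1.36, SE 0.10, edgeR adjusted p = 0.000101), and M419DRAFT_104242, M419DRAFT_83724 and M419DRAFT_6285, which have no annotation entry and rose by log2 fold changes of 1.134, 1.41 and 1.15 (edgeR adjusted p = 0.000101, 0.000101 and 0.000102). The fifth was the sugar porter M419DRAFT_79984 given above. Those that fell were M419DRAFT_76757, tagged as a sphingomyelin phosphodiesterase, with 65.9, 69.9 and 66.1 CPM on high melanin necromass, against 209, 171 and 227 CPM on low melanin necromass (log2 fold change −1.59, SE 0.10, edgeR adjusted p = 0.000101), the unannotated M419DRAFT_75541, with 88.1, 109.7 and 99.5 CPM on high melanin necromass, against 314, 328 and 345 CPM on low melanin necromass (log2 fold change −1.73, SE 0.10, edgeR adjusted p = 4.7e-05), and M419DRAFT_70020, M419DRAFT_33912 and M419DRAFT_101290, without an annotation entry (log2 fold changes −1.48, −1.48 and −1.30). Replicates of M419DRAFT_70020 lay close together, with 40.6, 45.3 and 42.8 CPM on high melanin necromass, against 119.5, 114 and 127 CPM on low melanin necromass. M419DRAFT_104242, M419DRAFT_83724 and M419DRAFT_75541 did not pass in the fit of all 9 libraries (edgeR adjusted p = 0.371, 0.105 and 0.174).

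Under 2-fold, the calls of smallest p that rose were the GH16 glucanase given above, M419DRAFT_27007, tagged as a class I glutamine amidotransferase (log2 fold change 0.93), the short-chain dehydrogenase M419DRAFT_128643 (0.87), M419DRAFT_24904 (0.74) and M419DRAFT_93948 (0.70), with edgeR adjusted p between 0.000195 and 0.000356. Those that fell were M419DRAFT_140778 (log2 fold change −0.86), M419DRAFT_142026 (−0.998), M419DRAFT_9911 (−0.91), M419DRAFT_109810 (−0.89) and M419DRAFT_84151 (−0.97), none with an annotation tag, with edgeR adjusted p between 0.000195 and 0.000326. Of these M419DRAFT_109810 was the most abundant, with 238, 259.8 and 233 CPM on high melanin necromass, against 436, 452 and 463 CPM on low melanin necromass, and its groups did not overlap. M419DRAFT_27007 and M419DRAFT_142026 did not pass in the fit of all 9 libraries (edgeR adjusted p = 0.151 and 0.15).

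Ribosomal protein genes moved as a block of small, uniform decreases. They encode the protein part of the ribosome, and their mRNA usually tracks the rate at which a fungus makes new protein. The list was drawn up from annotation tags after the data had been seen. Of 58 genes tagged as structural constituents of the ribosome 57 were tested, 52 fell (91.2%, against 14.9% of all genes), 2 rose, and the median log2 fold change was −0.87, against −0.01 over all genes. The tagged genes come from the study's lists of genes that differed from glucose, so all genes are not a like background. Among the 2010 tested genes with an annotation entry, 560 rose and 441 fell. The changes ranged from −1.21 to 0.78, and only 7 of the decreases reached 2-fold. In 53 of the 57 every high melanin library was below every low melanin library, where 49.2% of all genes did not overlap in either direction. The listed genes took 1.31, 1.53 and 1.41% of all counts on high melanin necromass, against 2.87, 2.32 and 3.13% on low melanin necromass (exact permutation p = 0.1, two-sided), and between 7.63 and 9.98% on glucose.

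M419DRAFT_115224 had the largest decrease, with 272, 369 and 349.6 CPM on high melanin necromass, against 762, 632 and 897 CPM on low melanin necromass (log2 fold change −1.21, SE 0.16, edgeR adjusted p = 0.000902). The smallest p was that of M419DRAFT_89189, with 325, 371 and 353 CPM on high melanin necromass, against 695, 629.7 and 782 CPM on low melanin necromass (log2 fold change −1.01, SE 0.11, edgeR adjusted p = 0.000436), and M419DRAFT_137938, among the most abundant, had 585, 664 and 659 CPM on high melanin necromass, against 1073, 959 and 1157 CPM on low melanin necromass (log2 fold change −0.74, SE 0.11, edgeR adjusted p = 0.00146). In each of the 3, low melanin replicate 2 was the low melanin library nearest to the high melanin ones. The 2 genes that rose, M419DRAFT_10988 and M419DRAFT_38429, were low on glucose (5.03 and 1.25 CPM), and M419DRAFT_38429 carries a peptidase tag as well. The number that fell was 52 in every fit that left out 1 library, 51 with all 9 libraries in the fit and 53 under library-size scaling, where the median was −0.98. Of the 2 that rose, 0 were called higher without high melanin replicate 2 and 1 in the other 5 such fits. Ribosomal protein genes without an annotation entry are not counted. M419DRAFT_10988 and M419DRAFT_38429 did not pass in the fit of all 9 libraries (edgeR adjusted p = 0.0627 and 0.288). The threshold was missed by M419DRAFT_10988 without high melanin replicate 2 or low melanin replicate 1 (adjusted p from 0.0566 to 0.0649) and M419DRAFT_38429 without high melanin replicate 1, 2 or 3 or low melanin replicate 2 or 3 (adjusted p from 0.0519 to 0.126).

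Genes for zinc cluster transcription factors, the main family of fungal regulators, were called at shares near those of all genes. Tested genes with an annotation entry were called more often, with 560 higher and 441 lower of 2010. Of the 44 zinc cluster genes 10 rose (22.7%, against 16.7% of all genes) and 7 fell (15.9%, against 14.9%), with a median log2 fold change of 0.06. Under library-size scaling 5 rose and 9 fell (median −0.05), with all 9 libraries 2 rose and 1 fell, and only 3 to 5 rose without high melanin replicate 1 or 2 or low melanin replicate 1 or 3. The most abundant, M419DRAFT_98788, had 3321, 2984 and 2924 CPM on high melanin necromass, against 2035, 2692 and 1949.7 CPM on low melanin necromass (log2 fold change 0.47, SE 0.15, edgeR adjusted p = 0.0407). M419DRAFT_77202 fell, with 16.5, 15.6 and 15.6 CPM on high melanin necromass, against 34.6, 36.9 and 39.6 CPM on low melanin necromass (log2 fold change −1.22, SE 0.09, edgeR adjusted p = 0.000118), M419DRAFT_106512 fell by 0.72 on the log2 scale, and M419DRAFT_76250 and M419DRAFT_37839 rose by 0.49 and 0.71 (edgeR adjusted p = 0.00145, 0.00393 and 0.00766). Of 4 hydrophobin genes tested, which coat hyphae and spores with a water-repellent layer, 3 rose and 1 fell. M419DRAFT_125486 and M419DRAFT_125146 rose by log2 fold changes of 0.53 and 0.64, M419DRAFT_34569 by 1.36, and M419DRAFT_128762 fell by 2.10 on the log2 scale (edgeR adjusted p = 0.0258, 0.0247, 0.000723 and 0.00161). M419DRAFT_98788, M419DRAFT_106512, M419DRAFT_37839, M419DRAFT_125486 and M419DRAFT_125146 did not pass in the fit of all 9 libraries (edgeR adjusted p = 0.224, 0.109, 0.0995, 0.0856 and 0.591). Leaving out 1 library ended the call for M419DRAFT_98788 and M419DRAFT_125486 without high melanin replicate 1, 2 or 3 or low melanin replicate 1 or 3 (adjusted p from 0.0704 to 0.152 and adjusted p from 0.0513 to 0.0849) and M419DRAFT_125146 without high melanin replicate 2 or 3 or low melanin replicate 1 or 3 (adjusted p from 0.0534 to 0.0937).

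Polyketide and nonribosomal peptide synthases build secondary metabolites. Among 9 genes for them, 4 rose (44.4%, against 16.7% of all genes) and 0 fell in edgeR (14.9% of all genes fell). At an unadjusted p under 0.05, 2 of the 9 were lower. DESeq2 called 5 higher and 1 lower, and edgeR called 1 lower without high melanin replicate 3. M419DRAFT_116130 had 13.5, 12.1 and 12.1 CPM on high melanin necromass, against 4.51, 5.16 and 4.22 CPM on low melanin necromass (log2 fold change 1.44, SE 0.13, edgeR adjusted p = 0.000195), M419DRAFT_76079 rose by 2.34 on the log2 scale at a low level, and M419DRAFT_91563, the most abundant, had 136 ± 24.2 CPM on high and 171 ± 2.37 CPM on low melanin necromass (SD, n = 3 each, edgeR adjusted p = 0.052). Of 35 short-chain dehydrogenases 8 rose (22.9%) and 4 fell (11.4%), shares near the 16.7% and 14.9% of all genes, with 2 lower without high melanin replicate 1 or low melanin replicate 1 or 3 and 7 lower without low melanin replicate 2. Both shares were below those of the 2010 tested genes with an annotation entry, of which 560 rose and 441 fell. M419DRAFT_85526 had 17.2, 13.98 and 14.2 CPM on high melanin necromass, against 2.38, 4.02 and 2.06 CPM on low melanin necromass (log2 fold change 2.41, SE 0.22, edgeR adjusted p = 0.000241), M419DRAFT_112529 and M419DRAFT_115937 fell by 0.87 and 0.54 on the log2 scale (edgeR adjusted p = 0.00251 and 0.00667), and the most abundant, M419DRAFT_75795, did not pass the test (edgeR adjusted p = 0.141).

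Of the 2010 tested genes with an entry in the annotation copy, tagged or not, 560 rose and 441 fell. Of 605 genes that the annotation copy lists without any tag 567 were tested, 173 rose (30.5%, against 16.7% of all genes) and 96 fell (16.9%, against 14.9%), with a median log2 fold change of 0.15. Under library-size scaling 129 were higher and 122 lower (median 0.04), and with all 9 libraries in the fit 72 and 29. M419DRAFT_9477 had 36.1, 34.6 and 37.7 CPM on high melanin necromass, against 7.72, 9.36 and 7.47 CPM on low melanin necromass (log2 fold change 2.14, SE 0.11, edgeR adjusted p = 3.83e-05), M419DRAFT_96972 had 131, 159.9 and 166 CPM on high melanin necromass, against 68.1, 62.8 and 65.5 CPM on low melanin necromass (log2 fold change 1.22, SE 0.10, edgeR adjusted p = 0.00015), and M419DRAFT_123608 fell, averaging 66.8 ± 12.3 CPM on high and 189 ± 12.1 CPM on low melanin necromass (SD, n = 3 each, log2 fold change −1.503, edgeR adjusted p = 0.000181). The most abundant, M419DRAFT_118629, stood at 3712 ± 347 CPM on high and 3418 ± 602 CPM on low melanin necromass and did not pass the test (edgeR adjusted p = 0.595). Of the 10 most abundant genes over the 6 libraries, 2 lay outside the lists above. M419DRAFT_124811, tagged with the enzyme class of serine endopeptidases but no peptidase family, fell, with 9107, 9402 and 11754 CPM on high melanin necromass, against 17578, 15531 and 17411 CPM on low melanin necromass (log2 fold change −0.74, SE 0.17, edgeR adjusted p = 0.0117), and M419DRAFT_135214, with no annotation entry, had 5862, 4949 and 6731 CPM on high melanin necromass, against 10882, 5973 and 12215 CPM on low melanin necromass and did not pass the test (edgeR adjusted p = 0.0583). M419DRAFT_124811 did not pass in the fit of all 9 libraries (edgeR adjusted p = 0.604). No call was made for M419DRAFT_124811 without high melanin replicate 1 or 2 or low melanin replicate 1 (adjusted p from 0.0508 to 0.0553).

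**Figure D5:**
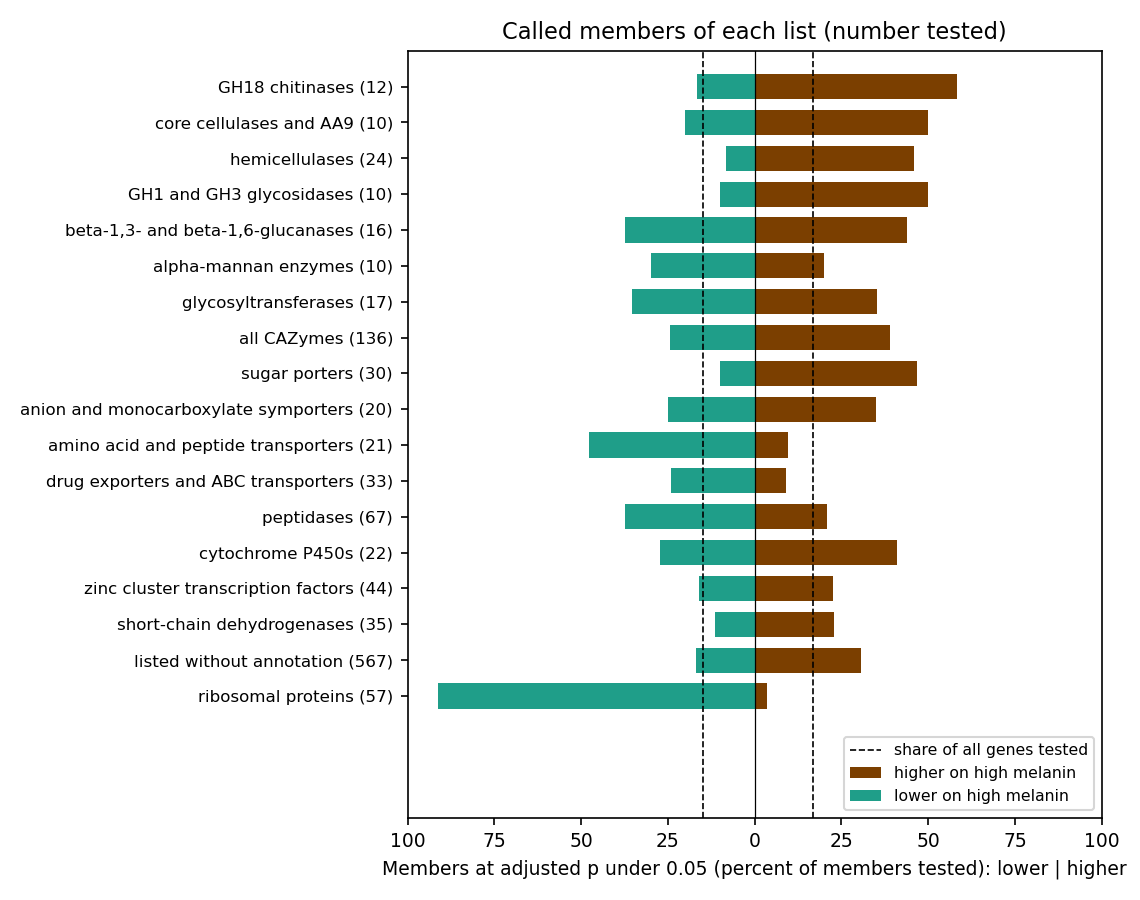
Percent of the tested members of the lists on the y axis that were higher (brown, to the right) or lower (green, to the left) on high melanin necromass at an adjusted p under 0.05, with the number tested in parentheses. Dashed lines mark the shares over all 9190 genes, 16.7% higher and 14.9% lower. Tested genes with an annotation entry were called more often (49.8%) than all genes (31.7%). Among the lists drawn, GH18 chitinases reach furthest to the right and ribosomal proteins furthest to the left.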

How the data were processed

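RNA-seq libraries of 3 high melanin, 3 low melanin and 3 glucose cultures were used, described as independent biological replicates. The authors deposited estimated counts per gene, obtained with kallisto (0.48.0 in the submitters' processing notes) and rounded to whole numbers. kallisto divides reads among similar transcripts, so values of close paralogs are uncertain. Genes that reached 10 counts in 3 or more of the 6 necromass libraries were tested with edgeR 4.0.16 in R 4.3.3 (TMM factors, glmQLFit and glmQLFTest on the 6 libraries alone, Benjamini-Hochberg adjustment), by a script tested on simulated data. Principal components used log2 CPM with a prior count of 2.

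Named are the genes that the study's text gives by protein ID, the 10 largest called changes in each direction, the 5 smallest p per direction among changes of 2-fold to 4-fold and under 2-fold at 10 CPM or more, the 10 most abundant genes, and in each list the most abundant member and up to 2 called members of smallest p per direction. Largest changes needed groups without overlap and 10 counts in every library of the higher group. Genes named beyond this rule were chosen after their values were seen. Members and lists were chosen with earlier results of these data known. There were 25 lists by annotation tags of a shortened copy of the study's gene table, and 12 more were added after seeing the data, also in place of 7 by product name that could not be built.

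Shares of counts were compared by an exact two-sided permutation test. Alternatives were DESeq2 1.42.0, other scaling factors, no filter, all 9 libraries, a test against 2-fold, a replicate block, leaving out each library, and leaving out genes under 1% of their glucose level.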

Additional observations from a re-analysis of the deposited data

How the results depend on the processing

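Across all settings run, no named gene that was called changed direction. With all 9 libraries in the fit, 868 genes were called (495 higher and 373 lower on high melanin necromass, with 103 lower by at least 2-fold), and 129 of the annotated list members. Against a 2-fold boundary 93 were called, 61 higher and 32 lower, and 29 list members. Scaling by library size alone gave 984 higher and 2176 lower, 258 of them lower by at least 2-fold. DESeq2 called 3017 genes (1575 higher, 1442 lower), of which 1497 and 1345 were shared with edgeR. Leaving out 1 library gave between 1723 and 3090 calls, 907 to 1629 higher and 816 to 1461 lower. At 2-fold these fits gave 249 to 376 higher and 124 to 228 lower, at 4-fold 59 to 88 higher and 18 to 34 lower, and 201 to 297 list members. The cellulase share differed by 8.30 to 10.6 percentage points, and the share of the 10 most abundant genes by 7.17 to 9.51. The distance on the first principal component was 34.2 to 39.9 when a library was left out, 49.0 with all tested genes and 14.7 with rlog values. Without a filter on low counts 2901 of 9783 genes were called, and without the genes under 1% of their glucose level 2898.

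Replicate numbers did not pair the samples. Deviations of same-numbered libraries from their group means correlated at −0.0430, −0.0427 and −0.0321, and those of other pairs between 0.0101 and 0.0331. With the replicate number as a block, 2449 genes were called, 1283 higher and 1166 lower.

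At the depth of these libraries genes at low CPM rest on few counts per library, and 3 libraries per group cannot reach an exact permutation p below 0.1.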

Other observations

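Some further gene groups, all picked from annotation tags after their values were seen, moved between the necromass types. Proteins with NACHT or ankyrin repeat domains, families that in fungi include self-recognition and signalling proteins, were mostly higher on high melanin necromass. Of 8 NACHT domain genes 7 rose and 0 fell (median log2 fold change 0.73), and of 31 ankyrin repeat genes 16 rose and 1 fell (median 0.64), the decrease being lost without high melanin replicate 1 or 3 or low melanin replicate 1 or 3. Over all genes 16.7% rose and 14.9% fell, and of the 2010 tested genes with an annotation entry 560 rose and 441 fell. Of the NACHT genes, 0 fell at an unadjusted p under 0.05 and 0 by DESeq2. With all 9 libraries in the fit, 3 and 7 of them were called higher. The NACHT gene M419DRAFT_56459 had 18.1, 20.2 and 23.5 CPM on high melanin necromass, against 12.2, 12.6 and 10.2 CPM on low melanin necromass (log2 fold change 0.82, SE 0.13, edgeR adjusted p = 0.00236), and the ankyrin repeat gene M419DRAFT_64887 had 132, 114 and 122 CPM on high melanin necromass, against 50.8, 67.4 and 46.2 CPM on low melanin necromass (log2 fold change 1.161, SE 0.13, edgeR adjusted p = 0.000585). Neither overlapped between the groups. Of 12 AAA ATPase genes 7 rose and 0 fell (0 at an unadjusted p under 0.05 and 0 by DESeq2), among them M419DRAFT_131271 (log2 fold change 1.02, SE 0.12, edgeR adjusted p = 0.000699). A gene with a HET domain, which is tied to recognition of non-self in fungi, M419DRAFT_140865, had 589.7, 459 and 590.5 CPM on high melanin necromass, against 61.6, 88.7 and 51.9 CPM on low melanin necromass (log2 fold change 3.02, SE 0.20, edgeR adjusted p = 0.000101), and the tubulin-type gene M419DRAFT_140705 had 52.4, 71.6 and 57.2 CPM on high melanin necromass, against 9.53, 13.5 and 7.24 CPM on low melanin necromass (log2 fold change 2.58, SE 0.21, edgeR adjusted p = 0.00017).

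Ferric reductases, which reduce iron for uptake, did not move together. M419DRAFT_38144 had 1941, 1690.3 and 1954 CPM on high melanin necromass, against 228, 572 and 158 CPM on low melanin necromass (log2 fold change 2.54, SE 0.41, edgeR adjusted p = 0.00243), with low melanin replicate 2 the nearest to the high melanin libraries. M419DRAFT_142266 fell, averaging 159 ± 4.302 CPM on high and 240.0 ± 8.32 CPM on low melanin necromass (SD, n = 3 each, log2 fold change −0.60, SE 0.07, edgeR adjusted p = 0.000669), and M419DRAFT_129565 overlapped between the groups (log2 fold change 0.56, edgeR adjusted p = 0.113) but was called higher without low melanin replicate 2. An FKBP-type peptidyl-prolyl isomerase gene, M419DRAFT_72966, which helps proteins fold, had 23.8, 18.6 and 19.5 CPM on high melanin necromass, against 0.8804, 4.28 and 1.05 CPM on low melanin necromass (log2 fold change 3.28, SE 0.42, edgeR adjusted p = 0.000922). A gene listed without annotation, M419DRAFT_120327, had 384, 365 and 446 CPM on high melanin necromass, against 57.3, 138 and 38.2 CPM on low melanin necromass (log2 fold change 2.35, SE 0.39, edgeR adjusted p = 0.00282). In the other direction, 6 of 10 glutathione S-transferase domain genes fell (60.0%, against 14.9% of all genes) and 0 rose in edgeR (1 at an unadjusted p under 0.05 and 0 by DESeq2, median −0.61), but only 2 fell when low melanin replicate 1 was left out and 3 without high melanin replicate 1, and 1 with all 9 libraries in the fit. M419DRAFT_91509 of this group had 18.1, 12.6 and 18.6 CPM on high melanin necromass, against 37.2, 25.2 and 40.2 CPM on low melanin necromass (log2 fold change −1.06, SE 0.20, edgeR adjusted p = 0.0048). Of 7 genes of the respiratory chain and ATP synthase 5 fell and 0 rose (median −0.37), of which 1 was called lower with all 9 libraries. Over all genes 16.7% rose and 14.9% fell, and of the 2010 tested genes with an annotation entry 560 rose and 441 fell. M419DRAFT_111878, a subunit of the cytochrome bc1 complex, had 76.7, 83.6 and 84.2 CPM on high melanin necromass, against 130.0, 123 and 147 CPM on low melanin necromass (log2 fold change −0.71, SE 0.08, edgeR adjusted p = 0.000699). The other small lists gave 1 increase and 2 decreases among 8 aminoacyl-tRNA synthetase genes (1 decrease without high melanin replicate 1 or low melanin replicate 1 or 3), 2 decreases among 4 histone genes (0 without high melanin replicate 1, and 3 at an unadjusted p under 0.05 and 3 by DESeq2 in the 6 libraries), 1 increase and 1 decrease among 5 aquaporin family genes (2 decreases without high melanin replicate 2 or low melanin replicate 2) and 1 decrease for the single proteasome gene (log2 fold change −0.23, not called without high melanin replicate 1 or 2 or low melanin replicate 1 or 3).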
